A study of Homo sapiens with 2 samples.

Results

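The 39 genes described here encode the enzymes and transporters that build, sulfate and trim heparan sulfate and chondroitin sulfate. They were chosen by name, with earlier results of these data known. Each was read by the probe sets whose only gene symbol in the platform annotation is that gene. RNA came from MDA-MB-231, a human breast carcinoma line of mesenchymal character that lacks hormone receptors. One group was the parental cells (control, 1 array), and the other was a clone of these cells in which UGT8 had been stably knocked down (UGT8 knockdown, 1 array). UGT8 encodes the enzyme that makes galactosylceramide. The growth medium and the harvest were described alike for both groups, and the knockdown reagent is not given in the sources used here. With 1 array a group there is no replicate check and no test, and every difference describes these 2 arrays. Since 1 clone was set against parental cells, effects of cloning and of UGT8 loss cannot be told apart. In bulk RNA, a lower level in every cell and a level lost in some of the cells cannot be told apart either.

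Heparan sulfate and chondroitin sulfate are long sugar chains carried by proteoglycans on the cell surface and in the matrix. Both start from the same linker of xylose, galactose, galactose and glucuronic acid on a serine of the core protein. The next sugar added decides between them, since N-acetylglucosamine opens a heparan sulfate chain and N-acetylgalactosamine a chondroitin sulfate chain. Epimerases then turn some glucuronic acid into iduronic acid, and sulfotransferases add sulfate at set positions. Epimerised chondroitin sulfate is called dermatan sulfate. The pattern of sulfate and iduronic acid sets which growth factors, chemokines and adhesion proteins the chain can bind.

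Of the 39 members, 37 had at least 1 probe set of their own, 100 probe sets in all among 18244 genes. NDST2 and HS3ST3A1 had none with that symbol alone in the annotation used here. Of a gene's probe sets, the brightest by the mean of both arrays was used. Genes whose brightest probe set lay under the median probe set (log2 6.64, called the floor) were set apart, which left 32 members among 10439 genes. The 5 members below it were XYLT1, HS6ST2, SULF1, SULF2 and CHSY3. Values are log2 RMA values, a difference is the knockdown value minus the control value, and a gene was counted as different at 1.5-fold.

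The targeted gene was lower in the library labelled as its knockdown. The brightest UGT8 probe set went from 8.95 in control to 6.61 in knockdown cells, 5.07-fold lower, and all 3 of its probe sets were lower. Normalization left both arrays with a median of 6.64, so a shift shared by most transcripts does not show. The median difference of the 10439 genes was 0.03. The median difference was 0.51 for the control RNAs added at hybridisation and 0.08 for the poly-A control RNAs. The difference between 3' and 5' probe sets, a reading of RNA quality, was 0.49 in control and 0.90 in knockdown cells for ACTB, and 0.18 and 0.19 for GAPDH. The line markers VIM, CD44, CAV1 and AXL were past the floor and within 1.5-fold between the arrays. ESR1 and PGR were below the floor, whereas the epithelial markers GATA3 and CDH1 were past it. Of markers of other cells, 1 of 3 measured leukocyte genes (CD14), 2 of 3 endothelial genes (PECAM1 and KDR) and 1 of 5 fibroblast genes (LUM) lay past the floor. By their brightest probe sets CD14 (1.66-fold), PECAM1 (2.12-fold), KDR (1.28-fold) and LUM (2.53-fold) were lower on the knockdown array. Linear levels were also summed over all measured genes of each list, past the floor or not. These sums were 244 and 169, 504 and 290, and 524 and 315 on the control and knockdown arrays. PTPRC, CD3E, CDH5, DCN, COL1A1 and COL1A2 were below the floor on both arrays. The part of these markers and of RNA quality in the results below was not tested.

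Among the 32 members past the floor, 1 was at least 1.5-fold higher on the knockdown array (PAPSS2) and 3 were at least 1.5-fold lower (HS2ST1, UST and CHST15). Of all genes past the floor, 4.96% were that much higher and 6.74% that much lower. In either direction the members came to 12.5% against 11.7% of all genes, so the share of members that differed was near the background. No member past the floor differed by 2-fold, as 2.28% of all genes did. The members leaned downward in small steps: 20 of 32 were below 0 (62.5%, against 45.8% of all genes), 11 were above 0 and CHST7 was at 0. Their median difference was -0.15, beside 0.03 for all genes, and their differences ran from -0.85 to 0.79. By step, the medians were 0.25 for the linker, -0.06 for the sugar and sulfate donors and -0.02 for the heparan sulfate polymerisation genes. They were -0.29 for heparan sulfate modification, -0.27 for chondroitin sulfate polymerisation and -0.22 for chondroitin and dermatan sulfate modification. All these directions hold on the deposited scale: centred on the hybridisation controls, every step median was below 0, and PAPSS2 (0.28) and HS3ST1 (0.01) were the only members past the floor above 0.

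**Figure D1:**
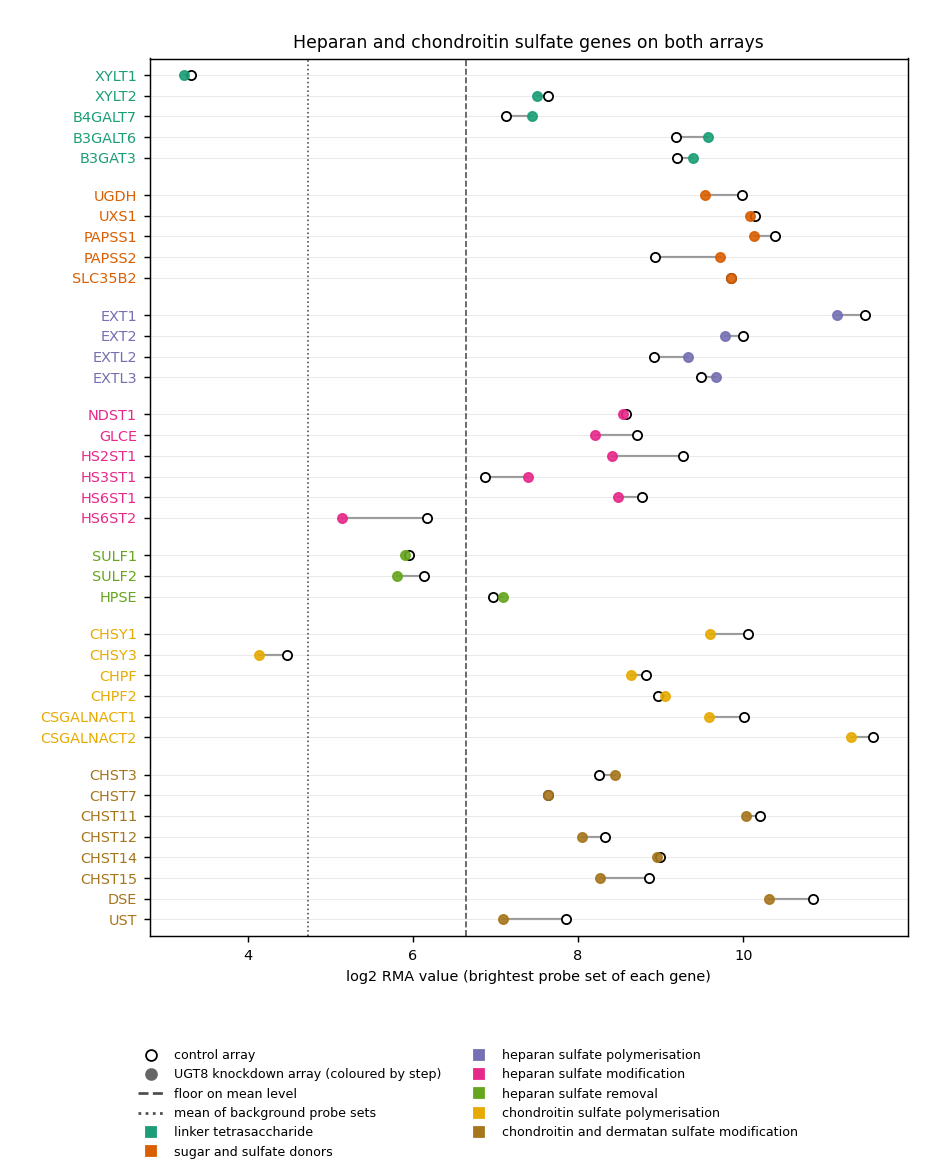
Log2 RMA value of the brightest probe set of each of the 37 measured members (x axis) on the control array (open circles) and the UGT8 knockdown array (filled circles, coloured by step), with 1 array a group and no error bars. The dashed line is the floor (6.64) and the dotted line the mean of the background probe sets (4.73); the longest gaps past the floor are those of HS2ST1, PAPSS2 and UST.

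**Figure D2:**
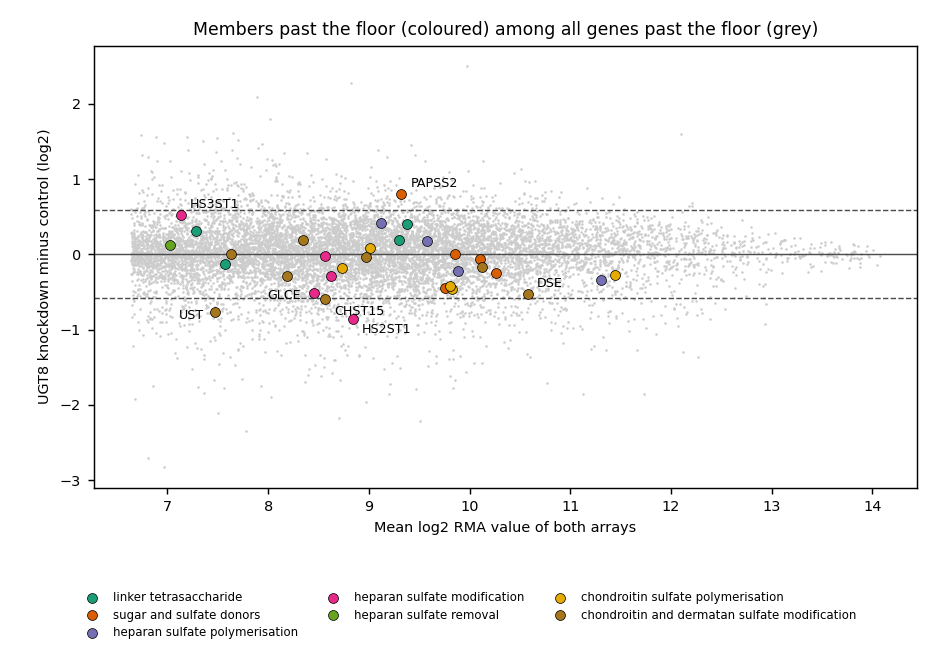
Difference between the arrays (y axis, log2, knockdown minus control) against the mean log2 value of both arrays (x axis) for the 10439 genes past the floor (grey) and the 32 members among them (coloured by step). The dashed lines mark 1.5-fold; 4 members lie beyond them, PAPSS2 above and HS2ST1, UST and CHST15 below.

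Among the modifying enzymes, HS2ST1, UST, GLCE and DSE, which make iduronic acid or sulfate uronic acid, were lower on the knockdown array. HS2ST1, which adds sulfate to the 2-O position of iduronic acid in heparan sulfate, read 9.27 in control and 8.41 in knockdown cells. Its difference of -0.85 (1.81-fold lower) was below that of all but 2.49% of genes past the floor. All 7 HS2ST1 probe sets were lower, by -0.25 to -0.90, and over the 6 past the floor the mean was -0.69 ± 0.25 (SD between its probe sets, which is no replicate error). UST, the 2-O-sulfotransferase of chondroitin and dermatan sulfate, read 7.85 and 7.09, a difference of -0.76 (1.70-fold lower). Its other probe set, below the floor, read 5.78 and 4.92, a difference of -0.86 that ended near the background probe sets (4.73). GLCE, the epimerase that makes iduronic acid in heparan sulfate, read 8.71 and 8.20 in its 1 probe set (-0.51, 1.43-fold lower). DSE, the epimerase of dermatan sulfate, read 10.84 and 10.32 (-0.53, 1.44-fold lower). Its 4 probe sets were all lower, by -0.25 to -0.71, though 2 of them held the same values and count as 1 reading. The epimerase genes GLCE and DSE thus stayed within 1.5-fold, and the 2-O-sulfotransferase genes HS2ST1 and UST lay past it. All 14 probe sets of these 4 genes were lower, but 7 of them are of HS2ST1 and 2 are the DSE probe sets with the same values. Probe sets of 1 gene are repeated readings of it. The 4 genes were grouped after their values were seen, so their common direction is a description. DSEL, a further dermatan sulfate epimerase gene that is no member, lay below the floor and did not share it, at 5.10 and 5.40 (0.30) with its other probe set at 0. CHST14, which sulfates dermatan sulfate at the 4-O position, read 8.99 and 8.95 and so differed by only -0.03.

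The stretches just before the annotated gene starts are shown for the heparan sulfate modifying genes with the lowest differences past the floor, the epimerase GLCE and its partner HS2ST1, so that these genes can be placed. They come from the RefSeq table of gene starts (GRCh38.p14), which matched 34 of the 39 members, and end at the base before the start, with the 250 bases written 5′ to 3′ along the gene. HS2ST1 lies at chr1:86914385-86914634, plus strand, and GLCE at chr15:69160385-69160634, plus strand. Capitals mark GC boxes (GGGCGG, 4 in HS2ST1 and 5 in GLCE) and CCAAT boxes (CCAAT, 2 and 1), searched on both strands with no overlaps between the motifs found. TATAAA and CACGTG were searched too and not found in either window.
HS2ST1: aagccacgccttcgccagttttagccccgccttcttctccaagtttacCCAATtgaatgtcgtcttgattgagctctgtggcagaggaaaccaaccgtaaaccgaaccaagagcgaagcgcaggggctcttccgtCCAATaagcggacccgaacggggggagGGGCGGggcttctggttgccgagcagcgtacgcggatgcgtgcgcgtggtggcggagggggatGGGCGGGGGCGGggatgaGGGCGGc
GLCE: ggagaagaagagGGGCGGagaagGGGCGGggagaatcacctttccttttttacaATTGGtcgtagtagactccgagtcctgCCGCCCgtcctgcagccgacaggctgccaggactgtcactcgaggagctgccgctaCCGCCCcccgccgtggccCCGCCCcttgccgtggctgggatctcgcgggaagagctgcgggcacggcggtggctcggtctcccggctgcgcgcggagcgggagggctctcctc
Of 34943 such windows, 42.5% hold a GC box, 32.0% a CCAAT box, 10.8% TATAAA and 6.32% CACGTG. GC content was 63.2% in the HS2ST1 window and 68.8% in that of GLCE, beside a median of 58% over all windows. These letter matches describe the windows and are not sites measured here.

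The corresponding stretches of the chondroitin and dermatan sulfate genes that lay past 1.5-fold, UST (chr6:148746780-148747029, plus strand) and CHST15 (chr10:124093599-124093848, minus strand), are printed for comparison. Each holds 1 GC box, in capitals, and none of the other motifs searched in this window.
UST: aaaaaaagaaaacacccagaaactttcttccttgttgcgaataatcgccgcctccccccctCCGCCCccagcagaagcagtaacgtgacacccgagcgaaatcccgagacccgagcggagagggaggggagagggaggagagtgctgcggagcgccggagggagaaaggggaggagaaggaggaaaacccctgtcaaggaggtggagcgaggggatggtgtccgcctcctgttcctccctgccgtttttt
CHST15: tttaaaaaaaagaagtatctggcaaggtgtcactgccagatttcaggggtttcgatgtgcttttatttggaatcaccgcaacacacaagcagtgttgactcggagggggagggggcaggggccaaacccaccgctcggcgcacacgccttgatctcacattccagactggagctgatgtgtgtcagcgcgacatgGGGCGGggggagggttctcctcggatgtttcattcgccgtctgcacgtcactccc
GC content was 59.6% for UST and 55.6% for CHST15. The 4 windows thus share only the GC box among the motifs searched, which 42.5% of all windows hold. All 4 belong to genes that were lower on the knockdown array. No window is printed for PAPSS2, the member past 1.5-fold upward, since it had no entry among the gene starts.

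The other heparan sulfate modifying enzymes did not move as one. NDST1, which removes acetyl groups from glucosamine and replaces them with sulfate at the start of modification, read 8.57 and 8.55 in its brightest probe set (-0.03). Its other 3 probe sets were higher, by 0.08 to 0.41, and the mean of all 4 was 0.20, so the NDST1 readings disagree. HS6ST1, a 6-O-sulfotransferase, read 8.77 and 8.48 (-0.29), with its other probe sets between -0.37 and 0.03. HS6ST2, a relative of HS6ST1 with the same activity, was below the floor and read 6.17 in control and 5.14 in knockdown cells (-1.03, 2.04-fold lower). The other 3 HS6ST2 probe sets had means of 4.64, 4.20 and 3.82, under that of the background probe sets (4.73), so that HS6ST2 rests on 1 dim reading. Those 3 were lower too, by -0.26 to -0.81, and the mean difference of all 4 was -0.60. HS3ST1, which adds the rare 3-O-sulfate needed for antithrombin binding, went the other way, from 6.87 to 7.40 (0.53, 1.44-fold higher). Its other probe set, below the floor, differed by 0.08. By their brightest probe sets, 4 of the 5 heparan sulfate modifying genes past the floor were below 0 (80%, beside 45.8% of all genes). NDST1 was among them only by that reading, and HS3ST1 was above 0.

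Enzymes that trim finished heparan sulfate were dim or near 0. The extracellular sulfatase genes SULF1 (5.95 and 5.90) and SULF2 (6.13 and 5.80), which remove 6-O-sulfate, lay below the floor on both arrays. HPSE, the heparanase that cuts the chain, read 6.96 and 7.09 (0.12). Its other probe set, at a mean near the background probe sets, differed by 0.59.

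Genes of the sulfate and sugar donors held the largest difference upward. PAPSS2, a synthase of PAPS, the sulfate donor that all these sulfotransferases use, read 8.93 in control and 9.72 in knockdown cells (0.79, 1.73-fold higher). Only 1.71% of genes past the floor had a higher difference. All 4 PAPSS2 probe sets were higher and past the floor, by 0.59 to 0.85, with a mean of 0.75 ± 0.11 (SD between its probe sets). PAPSS1, the other PAPS synthase, read 10.39 and 10.13 (-0.25), and its 3 probe sets were lower by -0.02 to -0.25. The 2 synthase genes thus differed in opposite directions on these arrays. SLC35B2, which carries PAPS into the Golgi, read 9.85 and 9.86 (0.01). UGDH, which makes the UDP-glucuronic acid used by all the polymerases, read 9.98 and 9.54 (-0.44, 1.36-fold lower). Its other probe set differed by -0.58, and both are marked for cross-hybridisation. UXS1, which turns UDP-glucuronic acid into the UDP-xylose that starts the linker, read 10.14 and 10.08 (-0.06).

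The linker genes past the floor other than XYLT2 were slightly higher, each within 1.5-fold. B3GALT6, which adds the second galactose, read 9.18 in control and 9.58 in knockdown cells (0.40, 1.32-fold higher). B4GALT7, which adds the first galactose, read 7.13 and 7.44 (0.31), and B3GAT3, which adds the glucuronic acid, 9.20 and 9.39 (0.19). Every probe set of these genes, 7 in all, was higher on the knockdown array. Both B3GAT3 probe sets and the B4GALT7 probe set past the floor are marked for cross-hybridisation. XYLT2, which attaches the xylose, read 7.64 and 7.50 (-0.13) with its 3 probe sets lower. XYLT1, the other xylosyltransferase, lay under the mean of the background probe sets (3.31 and 3.23, against 4.73). Centred on the hybridisation controls, B3GALT6 (-0.11), B4GALT7 (-0.21) and B3GAT3 (-0.32) were below 0.

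The genes listed for heparan sulfate polymerisation went in both directions, each within 1.5-fold by its brightest probe set. EXT1 and EXT2, whose products form the polymerase, were both slightly lower: EXT1 read 11.48 and 11.14 (-0.34) and EXT2 10.00 and 9.78 (-0.22), with its 4 probe sets at -0.13 to -0.26. EXTL3, which adds the first N-acetylglucosamine, read 9.49 and 9.67 (0.18). EXTL2, a transferase that acts on the linker region, read 8.92 and 9.33 in its brightest probe set (0.41, 1.33-fold higher). The other 3 EXTL2 probe sets, also past the floor, were past 1.5-fold at 0.63, 0.70 and 0.71. EXTL2 therefore counted as 1.5-fold higher when all its probe sets were averaged (0.61) and not by its brightest one. On the scale of the hybridisation controls its brightest probe set differed by -0.10.

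**Figure D3:**
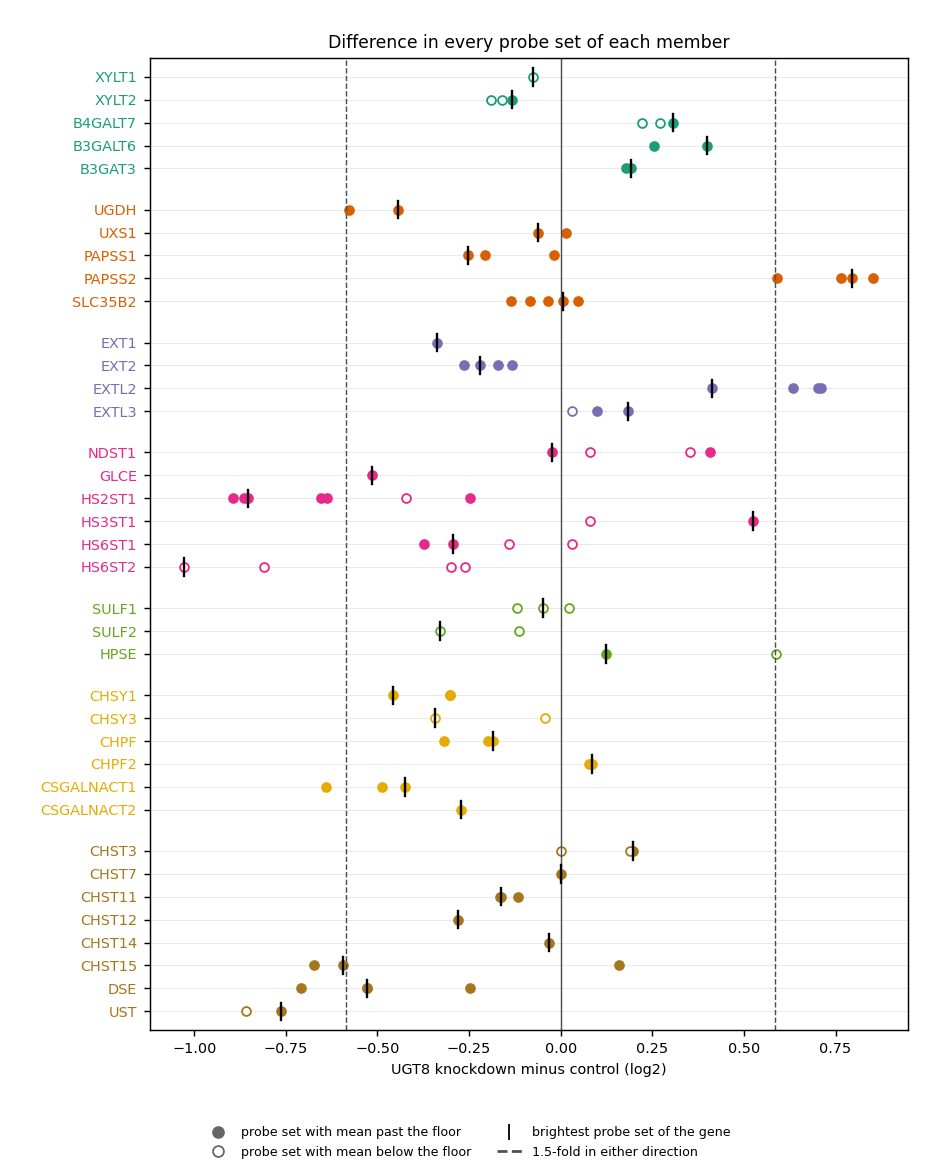
Difference between the arrays (x axis, log2, knockdown minus control) for each of the 100 probe sets of the 37 measured members (rows, coloured by step), filled where the mean level passed the floor and open where it did not, with a black bar at the brightest probe set. The probe sets of PAPSS2 and EXTL2 all lie above 0 and those of HS2ST1, DSE and UST all below 0. Those of CHST15, NDST1, HS6ST1, SLC35B2, UXS1 and SULF1 lie on both sides of 0.

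Chondroitin sulfate polymerisation genes past the floor were mostly lower, by less than 1.5-fold in their brightest probe sets. CHSY1, a chondroitin synthase, read 10.05 and 9.60 (-0.46, 1.37-fold lower), with its other 2 probe sets at -0.30. CSGALNACT1, which adds the first N-acetylgalactosamine, read 10.01 and 9.59 (-0.42). Its 3 probe sets lay between -0.42 and -0.64, the lowest of them past 1.5-fold. Its relative CSGALNACT2 read 11.58 and 11.30 (-0.27). CHPF, a partner of the synthases, read 8.83 and 8.64 (-0.19), whereas CHPF2, of the same family, read 8.97 and 9.05 (0.09). CHSY3 was dim on both arrays (4.48 and 4.14). So 4 of the 5 genes of this step past the floor were below 0 (80%, beside 45.8% of all genes), and CHPF2 was the exception. With 5 genes this count is a description.

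Chondroitin sulfotransferases differed little apart from UST and CHST15. CHST15, which adds a further sulfate to units that already carry 4-O-sulfate, read 8.86 in control and 8.27 in knockdown cells (-0.59, 1.51-fold lower). A further CHST15 probe set read 8.59 and 7.92 (-0.67), but the third read 7.49 and 7.65 (0.16), and the average of all 3 was -0.37, within 1.5-fold. The 4-O-sulfotransferase genes CHST11 (10.20 and 10.04, -0.16) and CHST12 (8.33 and 8.05, -0.28) were slightly lower. The 6-O-sulfotransferase gene CHST3 read 8.25 and 8.45 (0.20), and CHST7, with the same activity, read 7.63 on both arrays.

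Other genes of proteoglycan metabolism were read from a list of 59 genes that were not members, of which 55 had a probe set and 30 lay past the floor. None of the 30 was at least 1.5-fold higher and 5 were at least 1.5-fold lower, beside 4.96% and 6.74% of all genes. Their median difference was -0.25. PXYLP1, a phosphatase that removes phosphate from the linker xylose, read 10.60 in control and 9.81 in knockdown cells (-0.78, 1.72-fold lower), with all 4 probe sets lower. FAM20B, the kinase that adds this phosphate, read 9.59 and 9.47 (-0.12). Among the donors' transporters, SLC26A2, a sulfate importer, differed by 0.36 and SLC35D1, a carrier of UDP-glucuronic acid and UDP-N-acetylgalactosamine, by 0.21. HS3ST3B1, a 3-O-sulfotransferase gene named after its values were seen, read 7.12 and 6.05 (-1.06, 2.09-fold lower) with a mean below the floor. Its other probe set differed by -0.12, and the mean of both was -0.59.

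Genes listed for lysosomal breakdown were lower as well by their brightest probe sets, whereas core protein genes went in both directions. All 10 listed genes past the floor were below 0 in that reading (beside 45.8% of all genes), from -0.18 to -0.73, with a median of -0.30. The 10 include SUMF1 (-0.38), which serves the sulfatases and is not itself a breakdown enzyme. Some probe sets of HEXA (2 of 8, up to 0.31), IDS (1 of 6, 0.24) and ARSB (1 of 4, 0.19) were higher. NAGLU, which removes N-acetylglucosamine from heparan sulfate, was the one past 1.5-fold (8.38 and 7.65, 1.65-fold lower). Of 15 core protein genes past the floor, 9 were below 0 (60%, against 45.8% of all genes) and 6 above. At least 1.5-fold lower were 3 (20%, against 6.74% of all genes). AGRN, which encodes the matrix proteoglycan agrin, read 12.42 and 11.76 (-0.67), or -0.32 without probe sets marked for cross-hybridisation. GPC4, a glypican anchored in the cell membrane, read 8.58 and 7.96 (-0.62), but 1 of its 3 probe sets was higher (0.21). Averaged over all their probe sets, AGRN (-0.49) and GPC4 (-0.23) were within 1.5-fold. COL18A1, a collagen that carries heparan sulfate, read 8.35 and 7.76 (-0.59) and was lower in both probe sets. Of the syndecans, which span the membrane, SDC2 differed by -0.50 and SDC1 (0.14), SDC3 (0.10) and SDC4 (0.12) lay slightly above 0.

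**Figure D4:**
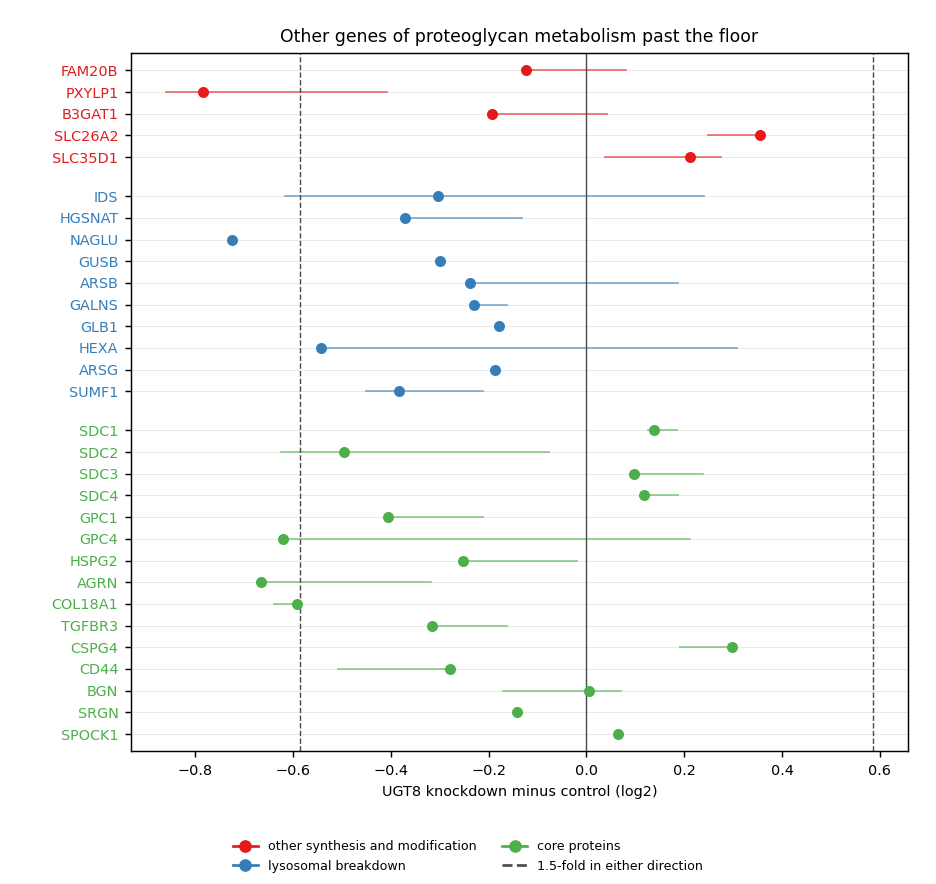
Difference between the arrays (x axis, log2, knockdown minus control) for the 30 other genes of proteoglycan metabolism past the floor (rows, coloured by list), as points for the brightest probe set with a line from the lowest to the highest probe set of the gene. The dashed lines mark 1.5-fold; PXYLP1, NAGLU, AGRN, GPC4 and COL18A1 lie past the lower one and no gene lies past the upper one.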

How the data were processed

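Total RNA was hybridised to Affymetrix expression arrays, 1 per group. The deposited values are log2 values made by RMA, per the submitters' processing notes; RMA corrects background, normalizes between arrays and summarises probe sets. Its software, version and build are not stated in these sources. Sorted values of both arrays differed by at most 0.0727. The table has 49495 probe sets: 45278 with a single symbol, 1333 with several, 2782 with none and 102 controls; symbols were updated through gene IDs to RefSeq (GRCh38.p14). Some genes of the lists had no probe set and are not analysed here. Groups came from the genotype labels. No test was run, since there is 1 array per group. Members, lists and rules were chosen with earlier results of these data known. All members were named, as were other listed genes past the floor and 1.5-fold. The counting was tested on simulated data. Alternatives were other floors, fold thresholds, probe set readings and centrings. Python 3.11.15, pandas 2.3.3 and statsmodels 0.14.6 were used. The number of arrays limits precision.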

Additional observations from a re-analysis of the deposited data

How the results depend on the processing

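Most counts and medians moved little between settings, and the scale mattered most. Single genes often depended on the probe set read. Centred on the hybridisation controls, 0 members were at least 1.5-fold higher and 17 lower (0.479% and 37.1% of all genes), with a median of -0.66, and PAPSS2 (0.28) and HS3ST1 (0.01) were the members past the floor above 0. The medians by step were then -0.26 (linker), -0.58 (donors), -0.53 (heparan sulfate polymerisation), -0.81 (heparan sulfate modification), -0.39 (removal), -0.79 (chondroitin sulfate polymerisation) and -0.73 (chondroitin and dermatan sulfate modification). Of the other pathway genes, 22 were lower, with a median of -0.76. Centred on the poly-A controls, 5 members were lower, GLCE (-0.59) and DSE (-0.60) added, beside 8.68% of all genes. Averaging all probe sets gave 2 members higher and 3 other pathway genes lower, and medians of -0.19 for heparan sulfate modification and 0.36 for removal. With the floor at the 75th percentile, 1 member (HS2ST1) and 2 other pathway genes were lower, and heparan sulfate modification had a median of -0.57 over 2 genes. With no floor or the 25th percentile, that median was -0.40 with HS6ST2 added, and the removal median -0.048 with SULF1 and SULF2 added. Without probe sets marked for cross-hybridisation the linker median was 0.40, over 1 gene, and the heparan sulfate polymerisation median was 0.03. At 2-fold or 3-fold, 0 members and 0 other pathway genes were counted in either direction. CHST15 changed sign in 1 of its probe sets (0.16). Floors act through the genes they keep and centring through its shift; the cause of the other moves was not tested. Centring on the median of all genes or by loess moved no median or named gene by as much as 0.0836, the median SD between probe sets of a gene. Apart from the CHST15 probe set above, 37 other probe sets of members differed from the brightest by that much or more, and 25 by less. Averaging all probe sets moved 16 named genes by that much or more and 27 by less.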
